A study of Mus musculus with 12 samples.

Results

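The genes examined here encode the MYC and MAX network of transcription factors. They are the MYC family genes Myc, Mycn and Mycl, their shared partner Max, and the further MAX partners Mga, Mnt, Mxd1, Mxd3, Mxd4 and Mxi1. They were chosen by name as members of the network, with earlier results of these data known but with no measured value in the rule, and all 10 were found among the 39017 genes of the gene table. All 10 passed the filter on low counts that left 17885 genes for testing by edgeR's quasi-likelihood test. Their RNA was measured by poly(A) RNA sequencing in 12 libraries of mouse embryonic stem cells (mESCs), which fall into 4 groups of 3 biological replicates. J1 is a male wild-type line. The 3B3-3l line (3B3L in the study) carries Dnmt3a-/- and Dnmt3b-/- alleles, and it expresses Dnmt3b and, after blasticidin selection, Dnmt3l from transgenes with the ubiquitous CAG promoter. Both lines were cultured with LIF, either in serum or in 2i. The 2i medium is serum-free and holds the MEK inhibitor PD0325901 at 1 µM and the GSK3 inhibitor CHIR99021 at 3 µM. The labels put LIF at 500 U/ml in serum and 1000 U/ml in 2i, while the study's methods give the same LIF amount for both, so that a LIF effect and a medium effect cannot be told apart. The J1 serum cultures were kept on inactivated SNLP feeders, removed by replating before collection, whereas the 3B3-3l line was kept on gelatin. In serum the surface and the line therefore cannot be told apart. Feeders were also removed from J1 for the conversion to 2i, so in J1 the medium and the feeders cannot be told apart. The difference of the 2i effects between the lines carries the same limit. The comparisons ask how the network differs between the media in each line, how the lines differ within a medium, and whether the 2i effect differs between the lines.

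MYC proteins pair with MAX through a basic helix-loop-helix leucine zipper, and the pair binds the E-box CACGTG and promotes transcription of genes for ribosome production, nucleotide synthesis and the cell cycle. MAX also pairs with the MXD proteins and MNT, which recruit the SIN3 corepressor with its histone deacetylases to the same E-boxes, and with MGA, the scaffold of the variant polycomb complex PRC1.6 that silences germline genes in mESCs. The balance between MYC and MXD or MNT pairs sets which activity reaches a shared site. In mESCs the MYC proteins are best known for their part in growth and self-renewal, and both LIF signalling and the kinases inhibited in 2i act on Myc transcription or MYC protein stability.

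Libraries held 37050652 to 44515395 estimated reads. A level is given below in CPM, a gene's reads scaled to the TMM-adjusted library size, and errors of group means are SD over 3 libraries. Dnmt3b, the targeted gene that is put back as a transgene, ranged from 404.1 to 426.9 CPM in J1 serum, 40.99 to 47.24 in J1 2i, 865.7 to 926.9 in 3B3-3l serum and 913.5 to 935.9 in 3B3-3l 2i. Dnmt3a ranged from 165.8 to 167.3, 38.93 to 44.45, 29.35 to 34.27 and 4.01 to 5.08 CPM in the same order, and which exons the targeted alleles lack was not given in the sources used here, so the reads that remain are no check of the label. The 7 pluripotency markers listed (Pou5f1, Sox2, Nanog, Zfp42, Esrrb, Klf4 and Tdgf1) summed to 3632 to 4909 CPM over the 12 libraries. The 14 fibroblast markers summed to 85.5 to 95.4 CPM in J1 serum, 28.8 to 30.5 in J1 2i, 115 to 128 in 3B3-3l serum and 21.0 to 21.7 in 3B3-3l 2i. Of these, 9 were tested, and 8 of them fell in 2i in each line, with Pdgfrb higher in J1 2i and not called in 3B3-3l. Those that fell included Col1a1, at 27.84 to 40.36 CPM over the serum libraries and 2.27 to 3.55 CPM in 2i, and Mmp2, at 27.31 to 42.62 and 2.88 to 5.24 CPM. Among the defining genes with low values, Lum was at 0 in every library except 3B3-3l serum replicate 3, at 0.026 CPM, Dcn stayed at or under 0.261 CPM, and Twist2 was at 0 in every 2i library. The 9 primitive endoderm markers summed to 328 to 340 CPM in J1 serum, 460 to 467 in J1 2i, 345 to 356 in 3B3-3l serum and 370 to 382 in 3B3-3l 2i. Sparc and Lama1 held most of that sum. Of the 9, 4 rose and 3 fell in J1 2i, 1 rose (Sparc) and 5 fell in 3B3-3l 2i (median log2 fold change -1.14), and in serum 7 were higher and 1 lower in 3B3-3l than in J1. These sums move with the medium, as the members do, and their part in the members' differences was not tested. In such bulk libraries, fewer cells expressing a gene and less RNA of it per cell cannot be told apart.

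In J1 cells most of the network was lower in 2i than in serum. Of the 10 members, 8 were called at an adjusted p under 0.05, beside 66.1% of all genes tested. Mga was the only member that rose, where 33.2% of genes were called higher, and Myc, Mycn, Mycl, Max, Mnt, Mxd4 and Mxi1 fell, where 32.9% were called lower. Myc, Mycn, Mycl and Mxd4 fell by at least 2-fold, as did 14.5% of genes. The median log2 fold change of the members was -0.44, against 0.01 over all genes tested. In 3B3-3l cells 6 of 10 members were called, beside 65.4% of genes. None was called higher, where 32.7% of genes were, and Myc, Mycn, Mycl, Mnt, Mxd4 and Mxi1 fell, where 32.7% were called lower. Mycn and Mxd4 fell by at least 2-fold in this line, as did 16.1% of genes. The members' median was -0.30, against 0.01. The shares of members called in either direction, 8 and 6 of 10, are near these backgrounds, so the following paragraphs rest on the size and direction of single genes.

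**Figure D1:**
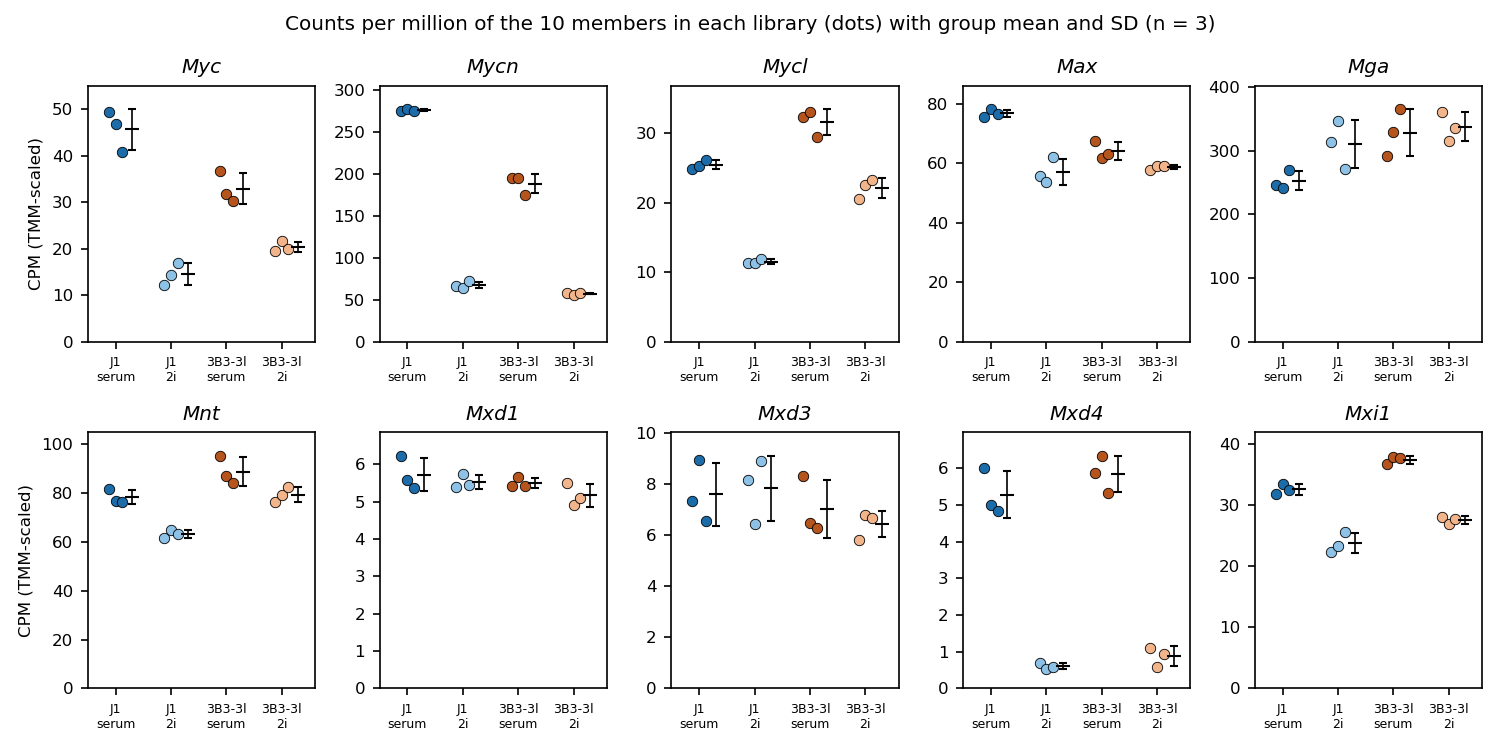
Level in CPM (vertical axes from 0, TMM-scaled) of the 10 members in each of the 12 libraries, as dots by group, with the mean and SD of the 3 libraries beside them. Mycn lay between 275.6 and 277.4 in J1 serum and between 64.18 and 72.12 in J1 2i, and Mxd4 stayed at or under 1.11 in every 2i library.

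Mycn (ENSMUSG00000037169, chr12:12936093-12941836 in GRCm38.p6, the build of all gene coordinates here) is the MYC family gene with the highest level in these cells. Its 3 J1 serum libraries stood at 275.7, 277.4 and 275.6 CPM, against J1 2i libraries at 67.08, 64.18 and 72.12 CPM. In 3B3-3l the serum libraries stood at 195, 195.4 and 175.7 CPM and the 2i libraries at 58.07, 56.35 and 58.33 CPM. The media did not overlap in either line, and each 3B3-3l group lay below the J1 group of the same medium. The fall in 2i was 4.08-fold in J1 (log2 fold change -2.03 ± 0.05 SE, adjusted p = 4.14e-14) and 3.28-fold in 3B3-3l (-1.71 ± 0.05, adjusted p = 2.02e-13).

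Myc (ENSMUSG00000022346, chr15:61985341-61990361), the founding member of the family, stood at 49.37, 46.79 and 40.92 CPM in J1 serum, against 12.21, 14.46 and 17.05 CPM in J1 2i. In 3B3-3l it stood at 36.68, 31.8 and 30.34 CPM in serum and at 19.62, 21.59 and 19.86 CPM in 2i. No library of one medium reached the range of the other in either line, and the 3B3-3l groups lay between the J1 groups. Myc fell 3.14-fold in J1 2i (-1.65 ± 0.11, adjusted p = 1.18e-09) and 1.62-fold in 3B3-3l 2i (-0.69 ± 0.10, adjusted p = 2.21e-05).

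Mycl (ENSMUSG00000028654, chr4:122995588-123002490), which encodes the L-MYC protein, stood at 24.84, 25.31 and 26.12 CPM in J1 serum, against 11.37, 11.27 and 11.93 CPM in J1 2i. Its 3B3-3l libraries stood at 32.24, 32.95 and 29.46 CPM in serum and 20.49, 22.57 and 23.28 CPM in 2i. The 3B3-3l libraries were the higher ones in both media, without overlap. Mycl fell 2.21-fold in J1 2i (-1.14 ± 0.07, adjusted p = 3.24e-10) and 1.43-fold in 3B3-3l 2i (-0.51 ± 0.06, adjusted p = 2.24e-06).

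The 2i effect on each of the 3 MYC family genes was smaller in 3B3-3l than in J1, by a test of the difference itself. The difference of the log2 fold changes was 0.96 ± 0.15 for Myc (adjusted p = 0.000141), 0.31 ± 0.07 for Mycn (adjusted p = 0.00423) and 0.63 ± 0.09 for Mycl (adjusted p = 7.83e-05). Max was the fourth member called here, at 0.30 ± 0.08 (adjusted p = 0.00875). All 4 differences were positive, with 4 of 10 members called beside 34.7% of all genes, of which 16.3% were called with a positive and 18.3% with a negative difference. The values of Mga (-0.26 ± 0.13, adjusted p = 0.129), Mnt (0.15 ± 0.08, adjusted p = 0.163) and Mxd4 (0.39 ± 0.27, adjusted p = 0.298) did not pass, although Mga and Mnt did without 3B3-3l serum replicate 1 (-0.34 and 0.20) and Mga without J1 2i replicate 3 (-0.35). The values of Mxd1, Mxd3 and Mxi1 lay between -0.17 and 0.01 and did not pass either. The 5 comparisons share libraries and are not independent of each other.

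**Figure D2:**
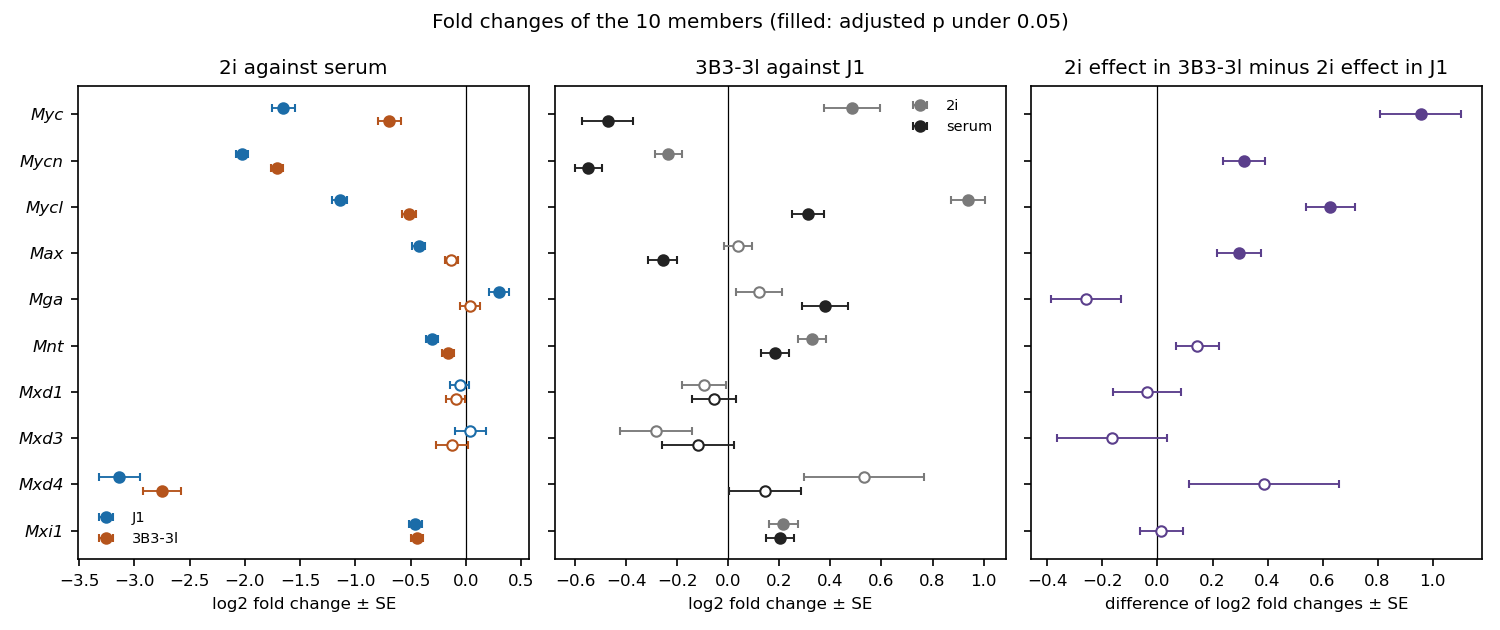
Log2 fold changes of the 10 members with their standard errors (horizontal axes), for 2i against serum in each line, for 3B3-3l against J1 in each medium, and for the difference of the 2i effects. Filled points have an adjusted p under 0.05, and the differences of Myc, Mycn, Mycl and Max lie between 0.30 and 0.96.

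Between the lines in 2i, 5 of 10 members were called beside 45.9% of genes. Myc, Mycl, Mnt and Mxi1 were higher in 3B3-3l, where 23.0% of genes were, and Mycn was lower, where 22.9% were. Mycl differed the most, at 1.92-fold (0.94 ± 0.07, adjusted p = 2.06e-08), followed by Myc at 1.40-fold (0.48 ± 0.11, adjusted p = 0.0017), while Mycn was 1.18-fold lower (-0.24 ± 0.05, adjusted p = 0.00208). In serum, 7 of 10 members were called beside 38.7% of genes. Mycl, Mga, Mnt and Mxi1 were higher in 3B3-3l, where 21.5% of genes were, and Myc, Mycn and Max were lower, where 17.2% were. Mycn was 1.46-fold lower (-0.55 ± 0.05, adjusted p = 9.24e-07) and Myc 1.39-fold lower (-0.47 ± 0.10, adjusted p = 0.00158), and Mycl was 1.24-fold higher (0.31 ± 0.06, adjusted p = 0.000943). Myc was thus called in both media with opposite signs. The members' median log2 difference between lines was 0.17 in 2i, against 0.01 over all genes, and 0.04 in serum, against 0.03.

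Levels can be compared between genes only per length, so each count was also divided by the gene's effective length, giving CPM per kilobase (RPKM). On this scale the MYC family summed to 146 ± 2.67 in J1 serum and 39.6 ± 2.82 in J1 2i, and to 106 ± 5.54 in 3B3-3l serum and 42.3 ± 0.183 in 3B3-3l 2i. The lines thus differed in the family's summed level in serum, without overlap, whereas in 2i the ranges of 37.7 to 42.9 and 42.1 to 42.5 overlapped. The make-up of that sum differed between the groups. Mycn held 77.4% ± 1.08 of it in J1 serum, 70.2% ± 2.13 in J1 2i, 73.2% ± 0.892 in 3B3-3l serum and 55.4% ± 0.962 in 3B3-3l 2i. Myc held 16.9% ± 1.11, 20.1% ± 2.04, 17.0% ± 1.15 and 26.6% ± 1.24 in the same order. Mycl held 5.68% ± 0.21, 9.78% ± 0.386, 9.83% ± 0.674 and 18.0% ± 0.402. These shares are given as a description and were not tested.

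**Figure D3:**
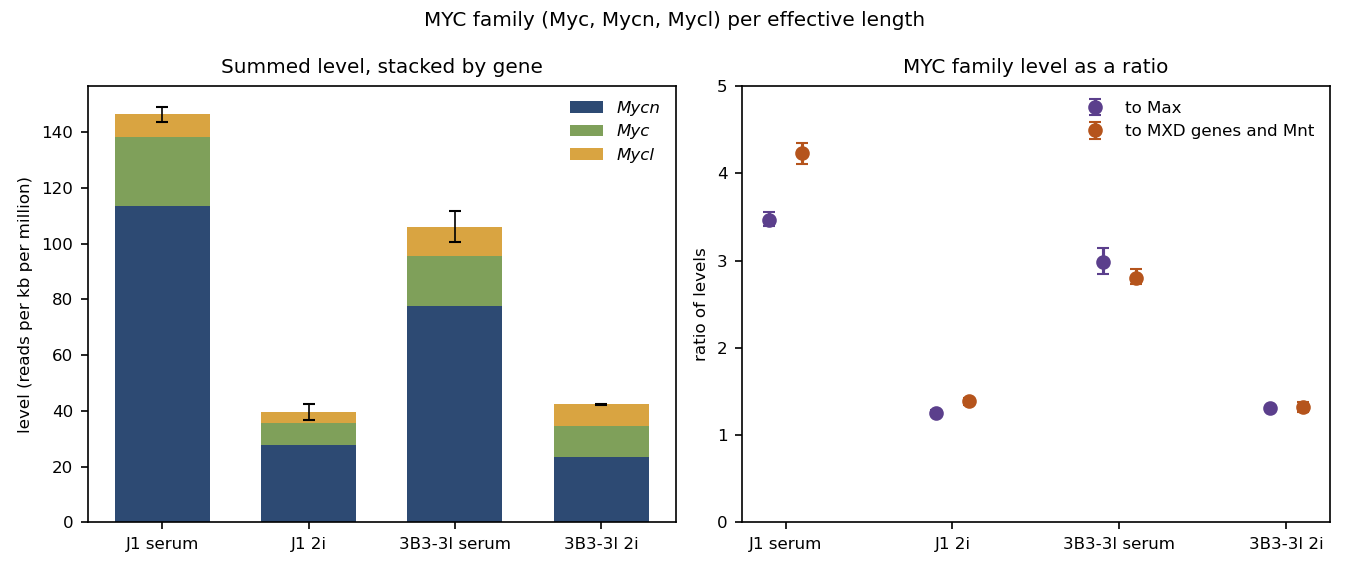
Left, the summed level of Mycn, Myc and Mycl per group (vertical axis from 0, CPM per kilobase), stacked by gene, with the SD of the sum over 3 libraries. Right, the ratio of that sum to the level of Max and to the summed level of the MXD genes and Mnt, as mean and range of the 3 libraries, which is 3.46 and 4.24 in J1 serum and 1.32 and 1.32 in 3B3-3l 2i.

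Max (ENSMUSG00000059436, chr12:76937269-76962323), the shared partner of the other members, varied less than the MYC genes. It stood at 75.69, 78.18 and 76.61 CPM in J1 serum, at 55.59, 53.78 and 62.14 CPM in J1 2i, 67.64, 61.86 and 63.19 CPM in 3B3-3l serum, and 57.92, 59.01 and 59.1 CPM in 3B3-3l 2i. J1 serum was the group apart, above every other library, and the 2i groups of the lines overlapped. Max fell 1.34-fold in J1 2i (-0.43 ± 0.06, adjusted p = 5.44e-06). Its 3B3-3l value, -0.13 ± 0.06 with an adjusted p of 0.0522, missed the threshold and passed it under 12 of 19 alternatives, where the adjusted p ranged from 0.00617 to 0.203 over all of them. Between the lines Max was 1.20-fold lower in 3B3-3l serum (-0.26 ± 0.06, adjusted p = 0.0018), and in 2i its difference was 0.04 ± 0.06 (adjusted p = 0.62). The ratio of the MYC family level to the Max level was 3.46 ± 0.0861 in J1 serum, 1.26 ± 0.0278 in J1 2i, 2.98 ± 0.149 in 3B3-3l serum and 1.32 ± 0.0114 in 3B3-3l 2i.

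Max is transcribed into a pair of coding forms with the same 5′ end that differ by an optional short exon, known as the long and the short form of the protein. Max-202 carries 27 coding bases (9 codons) that Max-201 lacks, at positions 38 to 64 of its coding sequence as placed by the first letter that differs. The stretch around it is shown because it is what tells the forms apart in the reads, with the inserted bases in capitals and 30 coding bases on each side, from the GENCODE transcript sequences:
Max-202: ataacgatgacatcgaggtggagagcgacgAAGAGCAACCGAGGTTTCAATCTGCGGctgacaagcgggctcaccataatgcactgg
Max-201: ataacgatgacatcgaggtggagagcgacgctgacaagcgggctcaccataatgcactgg
The long form's share of the summed TPM of Max was higher in 2i in both lines. In J1 it stood at 22.27, 19.81 and 20.51% in serum and at 28.72, 29.53 and 32.69% in 2i. In 3B3-3l it stood at 20.77, 13.79 and 20.11% in serum and at 32.72, 34 and 32.7% in 2i. The media did not overlap in either line, and the group means were 20.9% ± 1.27, 30.3% ± 2.1, 18.2% ± 3.85 and 33.1% ± 0.743 (SD, n = 3). These values are estimates that divide reads between forms sharing nearly all of their sequence, and they were not tested.

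The transcripts of Mycl also differed in make-up between the media. Mycl1-001 and Mycl1-002 have the same coding sequence, and the 5′ UTR of Mycl1-001 is 208 bases longer. Mycl1-001 held 33.47, 39.33 and 41.76% of the TPM of Mycl in J1 serum and 17.48, 18.52 and 27.66% in J1 2i. In 3B3-3l it held 35.88, 30.6 and 36.12% in serum and 20.56, 20.03 and 22.79% in 2i. The form with the longer 5′ UTR thus had a larger share in serum than in 2i, without overlap in either line, while Mycl1-002 held more than it in each group. These shares are a description with no test. Mycn-001 held 78.3% to 86.6% of the TPM of Mycn as group means, and its libraries in 3B3-3l serum, from 66.73 to 90.37%, spanned those of the other 3 groups. Myc-001 and Myc-005 have identical sequences and could not be told apart.

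**Figure D4:**
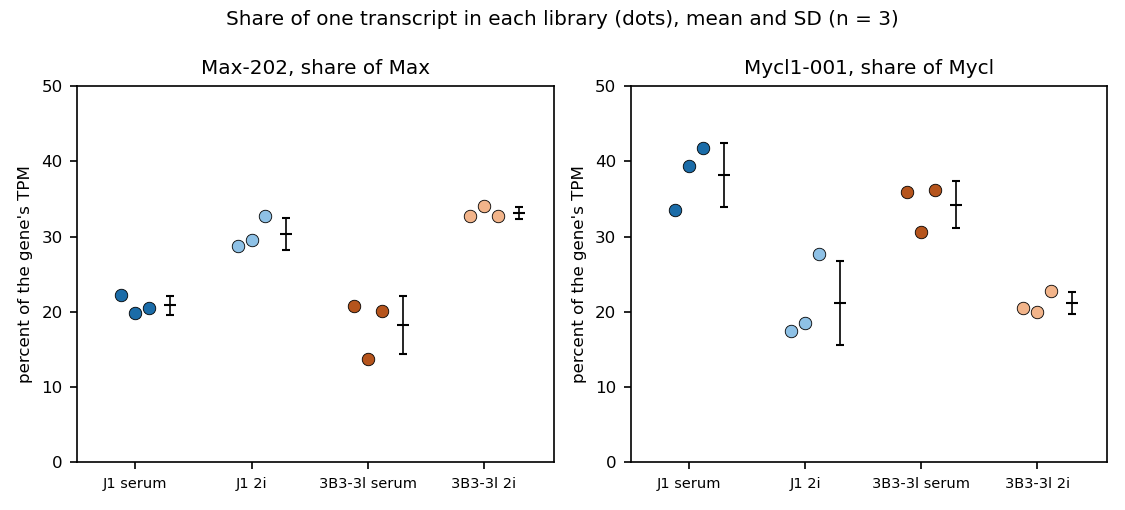
Percent of a gene's summed TPM (vertical axes) held by Max-202, the form of Max with 9 more codons, and by Mycl1-001, the form of Mycl with the longer 5′ UTR, in each of the 12 libraries, with the mean and SD of each group. Max-202 is higher in 2i and Mycl1-001 lower in 2i in both lines, without overlap.

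Mxd4 (ENSMUSG00000037235, chr5:34176580-34187710), an MXD repressor gene linked to cells that leave the cell cycle and differentiate, had the largest fold change of the 10 members. It stood at 6.01, 5.01 and 4.82 CPM in J1 serum, against 0.687, 0.538 and 0.575 CPM in J1 2i. The 3B3-3l libraries stood at 5.87, 6.33 and 5.33 CPM in serum and at 1.11, 0.587 and 0.931 CPM in 2i. The 2i values are low but above the 0.0684 to 0.0813 CPM that 3 counts come to in these libraries. Mxd4 fell 8.79-fold in J1 (-3.14 ± 0.19, adjusted p = 4.79e-10) and 6.72-fold in 3B3-3l (-2.75 ± 0.18, adjusted p = 9.83e-10), while between the lines it did not pass, at 0.53 ± 0.24 in 2i (adjusted p = 0.0783) and 0.14 ± 0.14 in serum (adjusted p = 0.448). The 2i value passed without 3B3-3l 2i replicate 2 (0.74, adjusted p = 0.0117).

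Mxi1 (ENSMUSG00000025025, chr19:53310128-53373293), another MXD repressor gene and also called Mxd2, stood at 31.72, 33.47 and 32.35 CPM in J1 serum, at 22.28, 23.33 and 25.5 CPM in J1 2i, 36.64, 37.89 and 37.58 CPM in 3B3-3l serum, and 28.05, 26.82 and 27.69 CPM in 3B3-3l 2i. The medium and the line each separated its libraries without overlap. It fell by a like amount in both lines, 1.37-fold in J1 (-0.46 ± 0.06, adjusted p = 2.88e-06) and 1.36-fold in 3B3-3l (-0.44 ± 0.06, adjusted p = 3.48e-06), with a difference between the effects of 0.01 ± 0.08 (adjusted p = 0.907). It was higher in 3B3-3l by 0.22 ± 0.06 in 2i (adjusted p = 0.00545) and by 0.20 ± 0.06 in serum (adjusted p = 0.00942).

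Mnt (ENSMUSG00000000282, chr11:74830806-74845725), the broadly expressed repressor that opposes MYC in cycling cells, stood at 81.68, 76.9 and 76.37 CPM in J1 serum, at 61.43, 64.93 and 63.41 CPM in J1 2i, 95.31, 87.04 and 84.13 CPM in 3B3-3l serum, and 76.19, 79.33 and 82.51 CPM in 3B3-3l 2i. Each line kept serum above 2i. Mnt fell 1.24-fold in J1 2i (-0.31 ± 0.05, adjusted p = 0.00013) and was 1.25-fold higher in 3B3-3l than in J1 in 2i (0.33 ± 0.05, adjusted p = 0.000153). Its 2i effect in 3B3-3l, -0.16 ± 0.05 (adjusted p = 0.0156), no longer passed without serum replicate 1 (-0.11, adjusted p = 0.0941), without 2i replicate 1 (-0.13, adjusted p = 0.0789) or with transcript length offsets. Its line difference in serum, 0.18 ± 0.05 (adjusted p = 0.0157), likewise did not pass without J1 serum replicate 2 or 3 (0.17 and 0.17) or without 3B3-3l serum replicate 1 (0.13), nor with no filter on low counts (0.16).

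Mxd1 (ENSMUSG00000001156, chr6:86647044-86669234), the first described of the MXD repressors, was low and level, with a range of 4.91 to 6.23 CPM over all 12 libraries. Mxd3 (ENSMUSG00000021485, chr13:55325170-55329900), a family member associated with proliferating cells, ranged from 5.83 to 8.95 CPM. The ranges of the groups overlapped in each comparison for both genes, and neither gene passed any of the 5 tests. The difference between lines in 2i of Mxd3, -0.28 ± 0.14 (adjusted p = 0.114), passed with no filter on low counts (-0.30) and without J1 2i replicate 2 (-0.41). Their 2i effects were -0.05 ± 0.09 and 0.04 ± 0.14 in J1 and -0.09 ± 0.09 and -0.13 ± 0.14 in 3B3-3l for Mxd1 and Mxd3. Per length, the MXD genes together stood at 15.8 ± 1.08 in J1 serum, 13.0 ± 1.31 in J1 2i, 16.7 ± 0.854 in 3B3-3l serum and 12.5 ± 0.339 in 3B3-3l 2i, with Mnt holding 54.2 to 61.0% of the summed MXD and Mnt level. The ratio of the MYC family level to that of the MXD genes and Mnt was 4.24 ± 0.123 in J1 serum, 1.39 ± 0.0399 in J1 2i, 2.80 ± 0.0902 in 3B3-3l serum and 1.32 ± 0.0539 in 3B3-3l 2i. Serum libraries lay above 2i libraries in both lines, and J1 lay above 3B3-3l in serum, while the 2i groups overlapped. Like the ratio to Max, this is a ratio of RNA levels, and the proteins were not measured here.

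Mga (ENSMUSG00000033943, chr2:119872503-119970129), the PRC1.6 scaffold, was the only member called higher in 2i, and that in J1 alone. It stood at 246.5, 241.6 and 269.5 CPM in J1 serum, at 313.5, 347.3 and 271.1 CPM in J1 2i, 290.9, 328.6 and 364.8 CPM in 3B3-3l serum, and 360.9, 315.2 and 336.1 CPM in 3B3-3l 2i. In CPM J1 serum was the lowest group, and the other groups overlapped each other. Per length, however, J1 serum (49.6 to 56.9 RPKM) and J1 2i (55.3 to 69.4) overlapped. So did their levels of protein-coding transcripts alone (17.9 to 20.5 and 19.6 to 27.1). Mga rose 1.23-fold in J1 2i (0.30 ± 0.09, adjusted p = 0.00807) and was 1.30-fold higher in 3B3-3l than in J1 in serum (0.38 ± 0.09, adjusted p = 0.00358). In 3B3-3l its 2i effect was 0.04 ± 0.09 (adjusted p = 0.713).

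In order of the level per length, Mycn came first in J1 serum (113 RPKM ± 0.503), before Mga (54.0 ± 3.88), Max (42.3 ± 0.598), Myc (24.7 ± 2.06), Mnt (18.7 ± 0.213) and Mycl (8.31 ± 0.334), and none of these neighbours overlapped in range. Mxi1 (6.69 ± 0.166) and Mxd3 (6.39 ± 1.02) came next and overlapped, as did the last pair, Mxd4 (1.48 ± 0.138) and Mxd1 (1.28 ± 0.101). In J1 2i the order began with Mga (63.4 ± 7.26), Max (31.6 ± 2.32), Mycn (27.8 ± 1.44) and Mnt (15.5 ± 0.425), and Myc (7.98 ± 1.33) overlapped Mxd3 (6.68 ± 1.14). In 3B3-3l serum Mycn (77.6 ± 4.18) and Mga (68.8 ± 8.93) overlapped at the top, followed by Max (35.5 ± 1.49), Mnt (21.3 ± 1.54), Myc (18.1 ± 1.94) and Mycl (10.4 ± 0.172). In 3B3-3l 2i the order was Mga (70.8 ± 1.52), Max (32.2 ± 0.416), Mycn (23.4 ± 0.384), Mnt (19.6 ± 1.11), Myc (11.3 ± 0.534) and Mycl (7.63 ± 0.19). Mycn thus stood above Max in every serum library and below it in every 2i library. The place of Mga depends on short non-coding transcripts of the locus. Counting its protein-coding transcripts alone, Mga stood at 18.9 ± 1.44, 23.5 ± 3.77, 25.0 ± 2.98 and 25.5 ± 2.15 in J1 serum, J1 2i, 3B3-3l serum and 3B3-3l 2i, below Max in each group.

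The promoters of the members were searched for CACGTG, the E-box that MAX pairs bind, in RefSeq windows (GRCm38.p6) from 250 bases before to 50 after a start site. The motif reads the same on both strands. Windows were at hand for 9 members, and those of Max, Mnt and Mxd4 held 1 match each, while 7.15% of all 32851 windows and 8.09% of the 27025 genes with a window held at least 1. The matches in Max, Mnt and Mxd4 begin 3, 123 and 219 bases before the start site of the window. The surrounding bases are shown because the windows of these 3 members hold the motif searched for. The motif is in capitals, for Max chr12:76962246-76962291 (minus strand), for Mnt chr11:74830761-74830846 (plus strand) and for Mxd4 chr5:34187884-34187960 (minus strand):
Max: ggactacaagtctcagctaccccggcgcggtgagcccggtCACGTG
Mnt: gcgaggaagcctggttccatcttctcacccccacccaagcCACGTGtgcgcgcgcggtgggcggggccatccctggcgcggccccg
Mxd4: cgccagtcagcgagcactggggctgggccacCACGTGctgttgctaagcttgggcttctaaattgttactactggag
All 3 genes fell in J1 2i, by between 0.31 and 3.14 on the log2 scale, and so did Mycn, Mycl and Mxi1, whose windows held no match. A match describes the letters of a window and not binding.

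Genes known as direct MYC targets in ribosome biogenesis were examined as a list of 17. In J1, 16 of 17 fell in 2i, none rose, and Dkc1, at 0.07, did not pass, with a list median of -0.38, where 32.9% of all genes fell and the median over all genes tested was 0.01 in either line. In 3B3-3l 7 fell and 4 rose (Nop58, Fbl, Rrp12 and Dkc1), where 32.7% of all genes went each way, with a median of -0.05. The difference of the 2i effects was called for 11 of 17, all positive, beside 16.3% of all genes, with a median of 0.23 against -0.03 over all genes tested. This count was 7 without 3B3-3l 2i replicate 2 and reached 14 without another library. Nolc1, a nucleolar chaperone of snoRNPs, had the largest fall in J1 (-0.64 ± 0.07, adjusted p = 1.36e-06), with means of 420 CPM in serum and 270 CPM in 2i, and fell less in 3B3-3l (-0.28 ± 0.07, adjusted p = 0.00295). Pes1, part of the PeBoW complex of the large ribosomal subunit, had the smallest called fall (-0.12 ± 0.05, adjusted p = 0.0425). Between the lines, 11 of 17 were higher and Pes1 lower in 3B3-3l in 2i, beside 23.0% and 22.9% of all genes. This count of 12 ranged from 8 to 13 with 1 library left out. The list median was 0.16, against 0.01 over all genes tested. In serum 7 were lower and Wdr12 higher, beside 17.2% and 21.5%, with a median of -0.13 against 0.03. The serum count of 8 was 5 without 3B3-3l serum replicate 2.

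The list of 24 MYC targets in metabolism, translation and growth was less uniform. In J1 14 fell and 4 rose (Hk2, Shmt2, Ccnd1 and Cdk4), with a median of -0.16, and in 3B3-3l 11 fell and 6 rose, with a median of -0.01. The 18 and 17 of 24 called in either direction are near the 66.1% and 65.4% of all genes. By direction, 32.9% of all genes fell and 33.2% rose in J1, and 32.7% went each way in 3B3-3l. Ccnd2, a D-type cyclin gene, had the largest fall, from a mean of 20.9 CPM in serum to 0.688 CPM in 2i for J1 (-4.93 ± 0.10, adjusted p = 2.22e-15) and from 13.15 to 0.801 CPM in 3B3-3l (-4.03 ± 0.10, adjusted p = 1.24e-14). Shmt2, a mitochondrial enzyme of serine and glycine metabolism, rose the most in J1, from 246 to 394 CPM (0.68 ± 0.06, adjusted p = 6.09e-08). The difference of the effects was called for 9 of 24, with 6 positive and 3 negative (Ldha, Hk2 and Nampt), near the 34.7% of all genes. Compared with J1, 3B3-3l cells had 5 of the 24 higher and 6 lower in 2i, near the 23.0% and 22.9% of all genes. In serum 3 were higher and 8 lower, beside 21.5% and 17.2% of all genes.

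Among 7 genes known to be repressed by MYC, 3 rose and 3 fell in 2i in each line. Those that rose were Cdkn1a, Cdkn1b and Ndrg1 in J1 and Cdkn1a, Cdkn1b and Cdkn2b in 3B3-3l. The 6 of 7 called in each line stand beside 66.1% and 65.4% of all genes. Cdkn1a, the cell cycle inhibitor p21, rose from 42.3 to 150 CPM in J1 (1.83 ± 0.05, adjusted p = 1.04e-13) and from 42.8 to 160 CPM in 3B3-3l (1.91 ± 0.05, adjusted p = 5.05e-14). Gadd45a, a stress response gene, fell from 30.8 to 9.76 CPM in J1 (-1.66 ± 0.06, adjusted p = 1.58e-12) and from 32.2 to 6.08 CPM in 3B3-3l (-2.40 ± 0.06, adjusted p = 3.52e-14). The difference of the effects was negative for 5 of 7 (Cdkn1b, Gadd45a, Gadd45b, Ndrg1 and Ndrg2) and positive for Cdkn2b, where 18.3% and 16.3% of all genes were called, with a median of -0.75. In 2i the same 5 genes were lower and Cdkn2b higher in 3B3-3l than in J1, beside 22.9% and 23.0% of all genes. In serum Gadd45b and Ndrg1 were higher in 3B3-3l, beside 21.5% of all genes. That count of 2 was 1 without J1 serum replicate 2, 3B3-3l serum replicate 1 or 3B3-3l serum replicate 2.

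**Figure D5:**
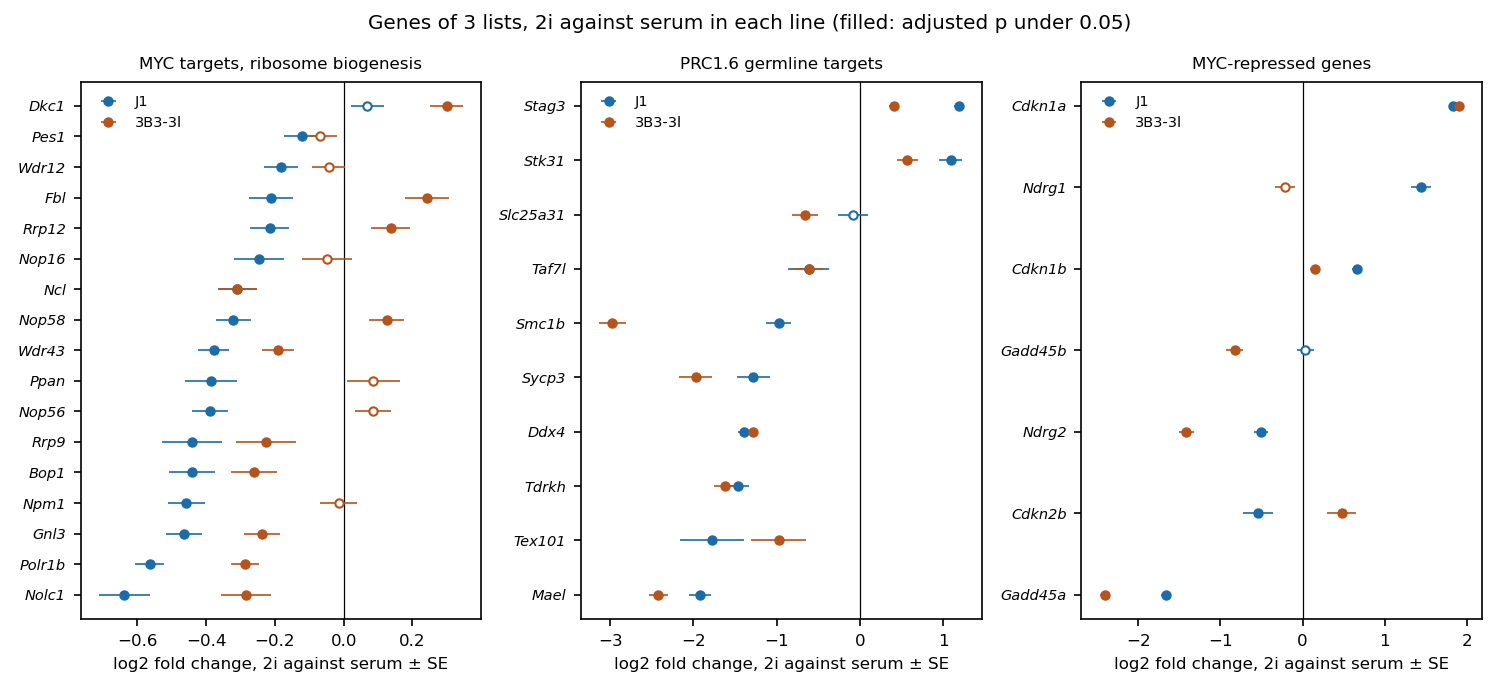
Log2 fold changes of 2i against serum with their standard errors (horizontal axes) for the genes of 3 lists in J1 and 3B3-3l, ordered by the J1 value. Filled points have an adjusted p under 0.05. Of the 17 ribosome biogenesis targets 16 fell in J1 and 7 in 3B3-3l, while 3 of 7 MYC-repressed genes fell in each line.

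The PRC1.6 complex that MGA holds together was examined through 10 partner genes and 10 germline genes that it is known to silence. Of the partners, 6 rose and 4 fell in J1 2i, and 6 rose and 2 fell in 3B3-3l 2i, a count of 8 that dropped to 4 without 3B3-3l serum replicate 2 or without 3B3-3l 2i replicate 1, and to 5 without any 1 of the J1 serum libraries or without 3B3-3l 2i replicate 3. Over all genes 33.2% rose and 32.9% fell in J1, and 32.7% went each way in 3B3-3l, for these genes and the germline genes that follow. Ring1, a RING finger subunit, rose the most in J1, from 6.60 to 11.2 CPM (0.76 ± 0.10, adjusted p = 4.44e-06), and Tfdp2, the partner of E2F6, fell the most, from 82.3 to 41.5 CPM (-0.99 ± 0.05, adjusted p = 2.12e-11). Of the germline genes, 7 fell and 2 rose in J1 2i (median -1.13), and 8 fell and 2 rose in 3B3-3l 2i (median -1.14), Stag3 and Stk31 being the ones that rose in both. Mael, a piRNA pathway gene, fell from 8.16 to 2.15 CPM in J1 (-1.92 ± 0.13, adjusted p = 2.06e-09) and from 17.5 to 3.26 CPM in 3B3-3l (-2.42 ± 0.12, adjusted p = 3.35e-11). Stag3, a meiotic cohesin gene, rose from 62.8 to 143 CPM in J1 (1.18 ± 0.06, adjusted p = 3.79e-11) and from 113 to 149 CPM in 3B3-3l (0.40 ± 0.06, adjusted p = 9.93e-06). In serum 8 of 10 were higher in 3B3-3l, beside 21.5% of all genes, and none lower (median 0.83). In 2i 4 were higher and 1 lower in 3B3-3l, beside 23.0% and 22.9% of all genes. The difference of the effects was called for 4 of 10, all negative, beside 18.3% of all genes, and for 2 without J1 serum replicate 1, 3B3-3l serum replicate 2 or 3B3-3l 2i replicate 2. Promoter windows of 7 of these 10 germline genes held CACGTG, against 8.09% of all genes with a window. So did those of 2 of 3 MLX branch genes, 3 of 9 members, 9 of 21 metabolism and growth targets and 2 of 13 ribosome biogenesis targets. The motif was in 1 of 8 PRC1.6 partners, 1 of 9 MYC cofactor genes, 1 of 9 SIN3 corepressor genes, 1 of 6 MYC-repressed genes and 0 of 9 MYC protein turnover genes.

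The remaining lists cover proteins that act with or on the network. Beside them, 66.1% of all genes were called in J1 2i and 65.4% in 3B3-3l 2i, in nearly equal parts up and down. Of 9 MYC cofactor genes, 5 rose and 3 fell in J1 2i, and 5 rose and 2 fell in 3B3-3l 2i. The list mixes coactivator genes with Zbtb17, which encodes the MYC partner MIZ1 and is no coactivator gene. Zbtb17 is among those that rose in both lines (0.39 in J1 and 0.46 in 3B3-3l). Wdr5, a chromatin protein that anchors MYC, rose from 228 to 366 CPM in J1 (0.68 ± 0.05, adjusted p = 2.33e-09) and from 267 to 495 CPM in 3B3-3l (0.89 ± 0.05, adjusted p = 7.3e-11), and Ruvbl2, an ATPase of the TIP60 and INO80 complexes, fell by 0.25 ± 0.07 in J1 (adjusted p = 0.00678). Of 10 genes that act on MYC protein turnover, 6 fell and 1 rose in J1 2i, and 2 fell and 2 rose in 3B3-3l 2i. Usp28, a deubiquitinase that counters FBXW7, fell from 304 to 106 CPM in J1 (-1.52 ± 0.06, adjusted p = 1.54e-12) and from 312 to 117 CPM in 3B3-3l (-1.41 ± 0.06, adjusted p = 3.15e-12), and Gsk3b, the kinase that marks MYC for degradation and a target of CHIR99021, rose 1.44-fold in J1 (0.52 ± 0.05, adjusted p = 3.42e-07). In 2i, 7 of the 10 turnover genes were higher in 3B3-3l and 1 lower, beside 23.0% and 22.9% of all genes.

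Of 13 SIN3 corepressor genes, 2 rose and 5 fell in J1 2i, and 5 rose and 3 fell in 3B3-3l 2i. The 7 and 8 of 13 called stand beside 66.1% and 65.4% of all genes. With 1 library left out they ranged from 5 to 7 and from 7 to 9. In 2i 8 were higher in 3B3-3l, beside 23.0% of all genes, and none lower, a count that was 5 without 3B3-3l 2i replicate 2. In serum 3 were higher and 1 lower in 3B3-3l, beside 21.5% and 17.2% of all genes. That count of 4 was 2 without J1 serum replicate 2 or without 3B3-3l serum replicate 2 or 3. Hdac2, a histone deacetylase of the complex, had the largest called rise in J1 (0.20 ± 0.05, adjusted p = 0.00167), and Arid4b, an ARID domain subunit, the largest fall (-0.30 ± 0.07, adjusted p = 0.00184). The difference of the effects was called for 5 of 13, near the 34.7% of all genes, 4 of them positive, and for 3 without J1 2i replicate 2, 3B3-3l serum replicate 2 or 3B3-3l 2i replicate 1 or 3. In the parallel MLX branch, whose proteins pair with some MXD proteins and MNT and respond to glucose, Mlxip fell in both lines, by 0.63 ± 0.07 in J1 and 0.70 ± 0.07 in 3B3-3l (adjusted p = 9.88e-07 and 2.43e-07). Mlxipl, which encodes the glucose sensor ChREBP, rose in J1 from 12.0 to 15.0 CPM (0.32 ± 0.08, adjusted p = 0.00272) and fell in 3B3-3l from 12.5 to 4.22 CPM (-1.57 ± 0.09, adjusted p = 3.73e-10), and the difference of -1.89 ± 0.12 was called (adjusted p = 4.14e-08). Mlx, the shared partner of this branch, fell in J1 2i (-0.43) and was lower in 3B3-3l in both media. The serum count for this list, 2 of 3 beside 38.7% of all genes, was 1 under most alternatives. Its count for the difference of the effects, 2 of 3 beside 34.7%, was 1 without J1 serum replicate 1 or 2 or without 3B3-3l 2i replicate 2.

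Over the 12 libraries and 10135 genes with at least 10 CPM in some group, the genes whose log2 CPM followed Mycn most closely were Adk, an adenosine kinase gene (Pearson r = 0.997), Grb10, an imprinted signalling adaptor gene (0.995), and Tub (0.995). Adk stood at 107 ± 3.38, 22.8 ± 0.957, 71.5 ± 3.16 and 18.6 ± 0.35 CPM in J1 serum, J1 2i, 3B3-3l serum and 3B3-3l 2i, the same order of groups as Mycn. The genes closest to Myc were Nup50, a nucleoporin gene (0.986), Pinx1 (0.984) and 2610528E23Rik (0.983). Pinx1, a nucleolar telomerase inhibitor gene, stood at 30.01 ± 0.665, 16.37 ± 2.28, 25.55 ± 1.26 and 19.3 ± 1.27 CPM in the same order of groups. The 12 libraries are 3 replicates of each of 4 groups, so these correlations largely compare group means and are a description.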

How the data were processed

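Poly(A) RNA of J1 and 3B3-3l mESCs in serum or 2i was sequenced from stranded libraries, 3 per group, with RNA of an integrity number of at least 9.9. The authors quantified transcripts with Sailfish against mm10 transcript models and summarised them with tximport. The deposited gene table holds estimated counts, not scaled by depth or length, and the deposited transcript tables hold TPM and estimated counts per transcript. The authors' methods name RefSeq models, while identifiers are those of Ensembl. Libraries were sequenced in pools that the labels do not give. Depth was 37050652 to 44515395 reads, and floors of 3 counts cover counting error only.

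Counts were rounded and tested with edgeR 4.0.16 (R 4.3.3; filterByExpr, TMM factors of 0.97 to 1.04, quasi-likelihood test, 1 coefficient per group over all 12 libraries, biological coefficient of variation 6.49%). Adjusted p values are Benjamini-Hochberg values over 17885 genes, called under 0.05. Each SE is the absolute log2 fold change divided by the square root of the test's F value. It is therefore approximate, most of all for the smallest changes. Levels per length divide counts by the read-weighted effective length of a gene, and log2 CPM for correlations used a prior count of 2. Symbols matched 85.6% of genes, and 90.4% of transcripts were assigned to a gene by GENCODE names. Transcript reads added up to the gene count within 1 read for 81.8% of genes. Coordinates and promoters are RefSeq's for GRCm38.p6 (mm10), so the annotation used for names gave none. The tests were also run on simulated counts in which few genes changed, in J1 2i alone, with the same biological coefficient of variation for every gene. That setting is simpler than these data, where most genes were called in 2i, so it does not check the error rate here.

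The members and lists were chosen with earlier results of these data known. Named genes were the 10 members, the highest and lowest called J1 2i effect of each list, and the 3 genes most correlated with Myc and with Mycn. Other genes named from a list were chosen after their values were seen. Alternatives were relative log expression factors, DESeq2 1.42.0 (Wald test), no filter or a minimum of 10 counts in all libraries, a fit on the 6 libraries of a contrast, a block for the replicate number, transcript length offsets, leaving out each library, and, for shares, raw counts, summed TPM or reads in place of TPM. The labels call the replicates biological and do not say whether cultures were independent, so p values measure the spread between these samples.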

Additional observations from a re-analysis of the deposited data

Results flagged for a closer look

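The 2i effect differed between the lines for 4 of the 10 members by the test of the difference itself, the log2 fold change in 3B3-3l minus that in J1. The difference was 0.96 for Myc, which fell 3.14-fold in J1 and 1.62-fold in 3B3-3l. It was 0.31 for Mycn, which fell 4.08-fold and 3.28-fold. It was 0.63 for Mycl, which fell 2.21-fold and 1.43-fold. It was 0.30 for Max, which fell 1.34-fold in J1 and did not pass in 3B3-3l. Over 18 alternatives these differences ranged from 0.845 to 1.086 for Myc, 0.266 to 0.363 for Mycn, 0.582 to 0.682 for Mycl and 0.255 to 0.362 for Max, with adjusted p values of at most 0.0348. In serum the lines also differed in culture surface, and the feeders of the J1 serum cultures were removed for 2i. The surface therefore enters each of these differences and cannot be told apart from the line.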

How the results depend on the processing

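No member call in J1 changed under any of 19 alternatives, and over the 50 member values 901 kept their direction and side of the threshold, 7 no longer passed, 18 passed newly and 14 changed sign, none of which was called. Replicate numbers did not pair the samples (same-number correlations of deviations from -0.118 to 0.017). The replicate block changed no member call, leaving 8 of 10 called for J1 2i, 6 for 3B3-3l 2i, 5 for the lines in 2i, 7 for the lines in serum and 4 for the difference of the 2i effects. It gave 5 called PRC1.6 partners for 3B3-3l 2i and 1 MLX branch gene for the lines in serum. A minimum of 10 counts in every library gave 4 PRC1.6 partners for 3B3-3l 2i and 2 for the lines in serum, and reversed Mga in 3B3-3l (-0.016) and the Mxi1 difference (-0.019). The MLX count in serum was also 1 with relative log expression factors, no filter, length offsets or DESeq2. With length offsets the difference was called for 3 SIN3 genes and 3 PRC1.6 partners. The cause of these shifts was not tested.

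Leaving out 1 library each gave 8 to 8, 5 to 7, 5 to 6, 6 to 7 and 4 to 6 members called in the same order. It gave 4 to 9 PRC1.6 partners in 3B3-3l 2i, 1 to 2 in serum and 3 to 7 for the difference. For SIN3 genes it gave 5 to 8 in 2i lines, 2 to 5 in serum and 3 to 7 for the difference, for MLX genes 1 to 2 in serum and 1 to 2 for the difference, for ribosome biogenesis 5 to 10 in serum and 7 to 14 for the difference, for MYC-repressed genes 1 to 3 in serum, and for germline genes 2 to 5 for the difference. Values that changed sign ranged in J1 2i from -0.099 to 0.009 for Mxd1 and -0.061 to 0.174 for Mxd3, in 3B3-3l 2i from -0.038 to 0.123 for Mga and -0.198 to 0.012 for Mxd3, between lines in 2i from -0.005 to 0.102 for Max, in serum from -0.101 to 0.007 for Mxd1 and -0.257 to 0.017 for Mxd3, and for the difference of Mxi1 from -0.034 to 0.072.

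Raw counts in place of levels per length put the Mycn share at 79.53% in J1 serum, 74.54% in 3B3-3l serum and 57.56% in 3B3-3l 2i. The shares per length ranged over libraries left out from 76.84 to 77.9% in J1 serum, 68.96 to 70.97% in J1 2i, 72.66 to 73.51% in 3B3-3l serum and 55.03 to 55.91% in 3B3-3l 2i. Estimated reads in place of TPM put Mga-001 at 76.79%, 77.1%, 74.56% and 74.48% of Mga in J1 serum, J1 2i, 3B3-3l serum and 3B3-3l 2i, Mycl1-001 at 37.67% and 24.38% in 3B3-3l serum and 2i, and Mycn-001 at 85.8% in J1 serum. Mxd4 in 2i rests on at most 1.11 CPM, where depth limits the precision most.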
